A study of Mus musculus with 54 samples.

Results

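The 35 genes described here mark microglia, macrophages and neutrophils. They were chosen by symbol from 53379 gene identifiers in each deposited file and fall into 5 subgroups by known role, with 10 homeostatic microglia genes, 10 genes shared by myeloid cells, 7 genes of activated myeloid cells, 3 macrophage genes and 5 neutrophil genes. The study asked how radiation acts in mouse medulloblastoma, a tumour of the cerebellum, and total RNA depleted of ribosomal RNA was sequenced in bulk. The SmoA1 groups were brain tumours from mice whose strain label reads SmoA1 homo. The Ptc groups were brain tumours from Ptc het mice on C57BL/6. The BL6 groups were normal cerebellum of C57BL/6 mice. Each tissue was taken 5 h after 1 Gy of radiation or after sham treatment, giving 6 groups of 3 libraries. The labels give no ages and name neither the promoter of the SmoA1 transgene nor the animal behind each numbered sample, and the p-values therefore describe variation among these libraries, which may be technical.

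Microglia are the resident macrophages of the brain parenchyma and depend on the receptor Csf1r for survival. In the resting state they express Cx3cr1, P2ry12, Tmem119 and the transcription factor Sall1, and in damaged or tumour-bearing brain they can lower these genes and raise Apoe, Spp1, Gpnmb and Lpl. Border macrophages of the meninges and vessels carry Mrc1 and Cd163, while neutrophils enter from blood and are known by Cxcr2, Mmp8 and the calprotectin subunits S100a8 and S100a9.

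Libraries of the 3 tissues were not of one kind. SmoA1 and BL6 libraries held 540652 to 842997 counts in genes, so that 1 count was worth 1.2 to 1.84 units of CPM (counts scaled to library depth), with equal counts on both strands and 70.4% to 75% of uniquely mapped reads over no annotated exon. Ptc libraries held 34124031 to 51330146 counts. Levels in SmoA1 and BL6 were compressed, with member means per exonic kb between 3.21 CPM for Itgam and 31.0 CPM for Tyrobp in SmoA1 sham, against 0.0511 CPM for Mpo and 555 CPM for Apoe in Ptc sham. The 6 T, B and NK cell markers summed to 33.7 to 81.4 CPM in SmoA1, 0.710 to 1.42 CPM in Ptc and 19.7 to 54.4 CPM in BL6. Tissue type and library type cannot be told apart for Ptc, and no test crosses that line. All 6 homeostatic microglia markers had counts in every group, but so had the 6 T, B and NK cell markers, so this does not single out microglia. The granule neuron progenitor markers summed to 440.8 to 651.7 CPM in SmoA1, against 360.7 to 426.3 CPM in BL6. Y-linked genes were high in SmoA1 1 Gy replicate 1, SmoA1 sham replicate 2, Ptc 1 Gy replicate 1 and BL6 1 Gy replicates 2 and 4. They were high in no BL6 sham or Ptc sham library, so groups are not matched for sex.

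Without radiation, scaled counts of 5 members were higher in SmoA1 tumours than in BL6 cerebellum and those of 1 were lower. Spic, a transcription factor of red pulp and other iron-handling macrophages, and Gpnmb, a glycoprotein of lipid-laden and disease-associated myeloid cells, differed most clearly. Tyrobp, the signalling adaptor of Trem2, C1qb, a chain of complement C1q, and Lyz2, a lysozyme of myeloid cells, were also higher, while the haemoglobin scavenger receptor Cd163 was lower. Of the 35 members, 29 passed the low-count filter, and the 5 neutrophil genes and the Fc receptor gene Fcgr3 did not. Members with few BL6 counts, such as Spic and Tyrobp, passed only through SmoA1, which favoured higher values among those tested. Called higher (adjusted p under 0.05, edgeR quasi-likelihood test with Benjamini-Hochberg adjustment over all genes) were 17.2% of those tested, against 7.07% of all genes tested. Called lower were 3.45% of the members tested and 9.4% of all genes tested. Their median log2 fold change was 0.20, and that of all genes 0.01. In bulk RNA, more cells of a type and more RNA per cell cannot be told apart.

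Spic had 21, 24 and 20 counts in the SmoA1 sham libraries and 0 in each BL6 sham library. Scaled counts in the tumours were at least 17.2-fold higher, taking 3 counts over the BL6 group as the floor, which covers counting error only. After 1 Gy it had 19, 34 and 20 counts in SmoA1 and 2, 0 and 0 in BL6, a ratio of 30.3 with a 95% counting interval of 8.11 to 255. On the compressed scale, neither value need equal the ratio of RNA amounts. No SmoA1 library overlapped any BL6 library in either arm. In Ptc tumours, where counts are deeper, Spic stood at 2.02, 3.47 and 3.41 CPM after 1 Gy and at 0.583, 0.0646 and 0.499 CPM in sham.

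Gpnmb had 104, 90.3 and 95.8 CPM in SmoA1 sham, against 45.6, 32.4 and 57.9 CPM in BL6 sham. The log2 fold change was 1.11 ± 0.19 (SE, adjusted p = 0.000183). After 1 Gy the libraries stood at 97.8, 81.4 and 109 CPM in SmoA1 and at 38.0, 36.8 and 35.2 CPM in BL6 (log2 fold change 1.39 ± 0.20 SE, adjusted p = 3.68e-05). The 6 tumour libraries lay above the 6 BL6 libraries, and the change after 1 Gy passed in neither tissue (log2 fold change -0.01 ± 0.15 SE in SmoA1 and -0.28 ± 0.24 SE in BL6, adjusted p = 0.992 and 0.999). Gpnmb and Spic were the members called in both arms under each alternative and each left-out library that tested them. Lyz2 was also called in both arms.

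Tyrobp counts were 14, 18 and 16 in SmoA1 sham, against 3, 3 and 4 in BL6 sham (log2 fold change 1.90 ± 0.44 SE, adjusted p = 0.00316). After 1 Gy they were 14, 17 and 11 in SmoA1 and 4, 7 and 9 in BL6, and the difference did not pass (log2 fold change 0.80 ± 0.42 SE, adjusted p = 0.335). The test of the change after 1 Gy in SmoA1 minus that in BL6 gave -1.09 ± 0.64 (log2, SE, adjusted p = 0.551), so the arms were not shown to differ. Trem2, the receptor that signals through Tyrobp, differed by 0.15 ± 0.22 in sham and 0.70 ± 0.24 after 1 Gy (log2, SE, adjusted p = 0.722 and 0.0771). Fcer1g, a related adaptor of Fc receptors, had 8, 19 and 21 counts in SmoA1 sham and 7, 14 and 9 in BL6 sham.

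**Figure D1:**
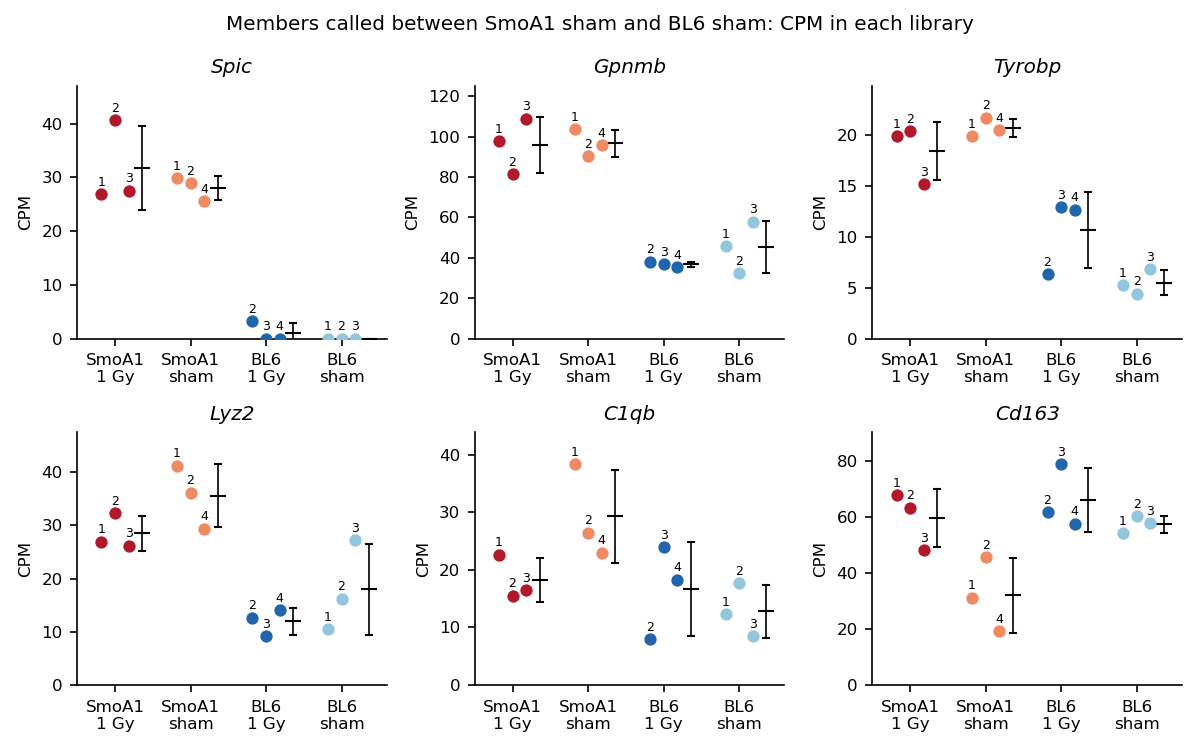
CPM of 6 members in each SmoA1 and BL6 library (numbered points; the black dash and bar are the mean and SD of 3 libraries), on linear axes from 0. Spic, Gpnmb and Tyrobp separate all 6 tumour from all 6 BL6 libraries, whereas Cd163 is lower in SmoA1 sham, at 31.3, 45.8 and 19.2 CPM, than in BL6 sham.

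The remaining calls in sham were less firm. C1qb averaged 29.3 ± 8.06 CPM in SmoA1 sham and 12.8 ± 4.60 CPM in BL6 sham (SD, n = 3 each; log2 fold change 1.16, adjusted p = 0.0287 by edgeR), while C1qa, from the same complex, differed by 0.77 ± 0.40 and C1qc by -0.02 ± 0.33 (log2, SE). Lyz2 had 29, 30 and 23 counts in SmoA1 sham and 6, 11 and 16 in BL6 sham (log2 fold change 0.98, adjusted p = 0.0376). Lyz1, its near-identical neighbour, had 2 or 3 counts in SmoA1 sham and 1 to 3 in BL6 sham. Cd163 stood at 31.3, 45.8 and 19.2 CPM in SmoA1 sham, against 54.4, 60.4 and 57.9 CPM in BL6 sham (log2 fold change -0.82 ± 0.25 SE, adjusted p = 0.0235). C1qb lost its call when SmoA1 sham replicate 1 was left out (adjusted p = 0.126), and likewise BL6 sham replicates 1 and 3 (0.0821 and 0.151). Lyz2 lost its call in 4 of 6 such fits (up to 0.163) and Cd163 in 5 of 6 (up to 0.118), the exceptions being those without SmoA1 sham replicate 4 or BL6 sham replicate 3 for Lyz2 and without SmoA1 sham replicate 2 for Cd163. Mrc1, the mannose receptor that also marks border macrophages, differed by 0.08 ± 0.21 (log2, SE). Border macrophage markers summed to 84.3 to 118 CPM in SmoA1 sham and 143.8 to 156 CPM in BL6 sham, and choroid plexus markers to 20.5 to 37.1 CPM in SmoA1 sham and 149.1 to 178.8 CPM in BL6 sham. The part of these cells in the Cd163 result was not tested.

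Cx3cr1, P2ry12, Sall1, Tmem119 and Csf1r, genes of resting microglia, were not called between SmoA1 tumour and BL6 cerebellum in sham. Cx3cr1, the fractalkine receptor, had 38, 36 and 34 counts in SmoA1 sham and 30, 22 and 25 in BL6 sham (log2 fold change 0.16 ± 0.23 SE). The purinergic receptor P2ry12 differed by -0.01 ± 0.31, Sall1 by 0.07 ± 0.21, Tmem119 by 0.20 ± 0.34 and Csf1r by 0.36 ± 0.21 (log2, SE). None of these 5 genes passed, with adjusted p values of 0.305 to 0.997. P2ry12 shares exonic bases with Med12l on the other strand, Cx3cr1 with Gm33858, Csf1r with Hmgxb3 and Mpo with Gm11505, and Itgam does so with Gm49368 on its own strand. Reads that could not be assigned to 1 gene of such a pair were ambiguous and left out, so these genes may be undercounted. The calcium-binding protein Aif1 and the lysosomal membrane protein Laptm5 lay 0.97 ± 0.37 and 0.61 ± 0.23 higher in SmoA1 sham (log2, SE) without passing (adjusted p = 0.0756 and 0.0776). Ptprc, Ctss and Cd68 lay 0.32 to 0.47 higher, and Itgam 0.16 lower (log2 fold change -0.16).

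SmoA1 tumour and BL6 cerebellum were also compared after 1 Gy. The test of the change after 1 Gy in SmoA1 minus that in BL6 called 0 members, so the arms were not shown to differ. Cxcr2 and Mmp8, called after 1 Gy, went untested in sham. Of 31 members tested (all but Fcer1g, S100a8, S100a9 and Mpo) 8 were called higher and 0 lower, which is 25.8% higher, against 4.33% of all genes called higher and 2.58% called lower. DESeq2 also called 0 members lower, and none was lower at an unadjusted p under 0.05. The median log2 fold change of the members was 0.63, with 29 of 31 positive, and that of all genes was -0.01. Besides Spic, Gpnmb and Lyz2 (log2 fold change 1.23, adjusted p = 0.0302) the calls were Cxcr2, Mmp8, Itgb2, Tmem119 and Lpl. Members with few BL6 counts, such as Spic, Cxcr2 and Mmp8, passed the filter only through SmoA1, which favoured higher values among those tested. Itgb2, the shared beta chain of leukocyte integrins, stood at 53.9, 49.1 and 81.3 CPM in SmoA1 1 Gy and 36.5, 35.0 and 32.4 CPM in BL6 1 Gy (log2 fold change 0.83, adjusted p = 0.0317). Lpl, lipoprotein lipase, averaged 65.7 ± 9.59 CPM in SmoA1 1 Gy and 40.9 ± 4.01 CPM in BL6 1 Gy (SD, n = 3 each; adjusted p = 0.0403). Tmem119 had 23, 19 and 15 counts in SmoA1 1 Gy and 6, 8 and 3 in BL6 1 Gy (adjusted p = 0.0344), although SmoA1 sham, with 16, 16 and 17 counts, was close to the irradiated tumours. Lyz2, Itgb2, Tmem119 and Lpl each lost the call without at least 4 of the 6 libraries in turn, with adjusted p up to 0.126, 0.219, 0.166 and 0.166.

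**Figure D2:**
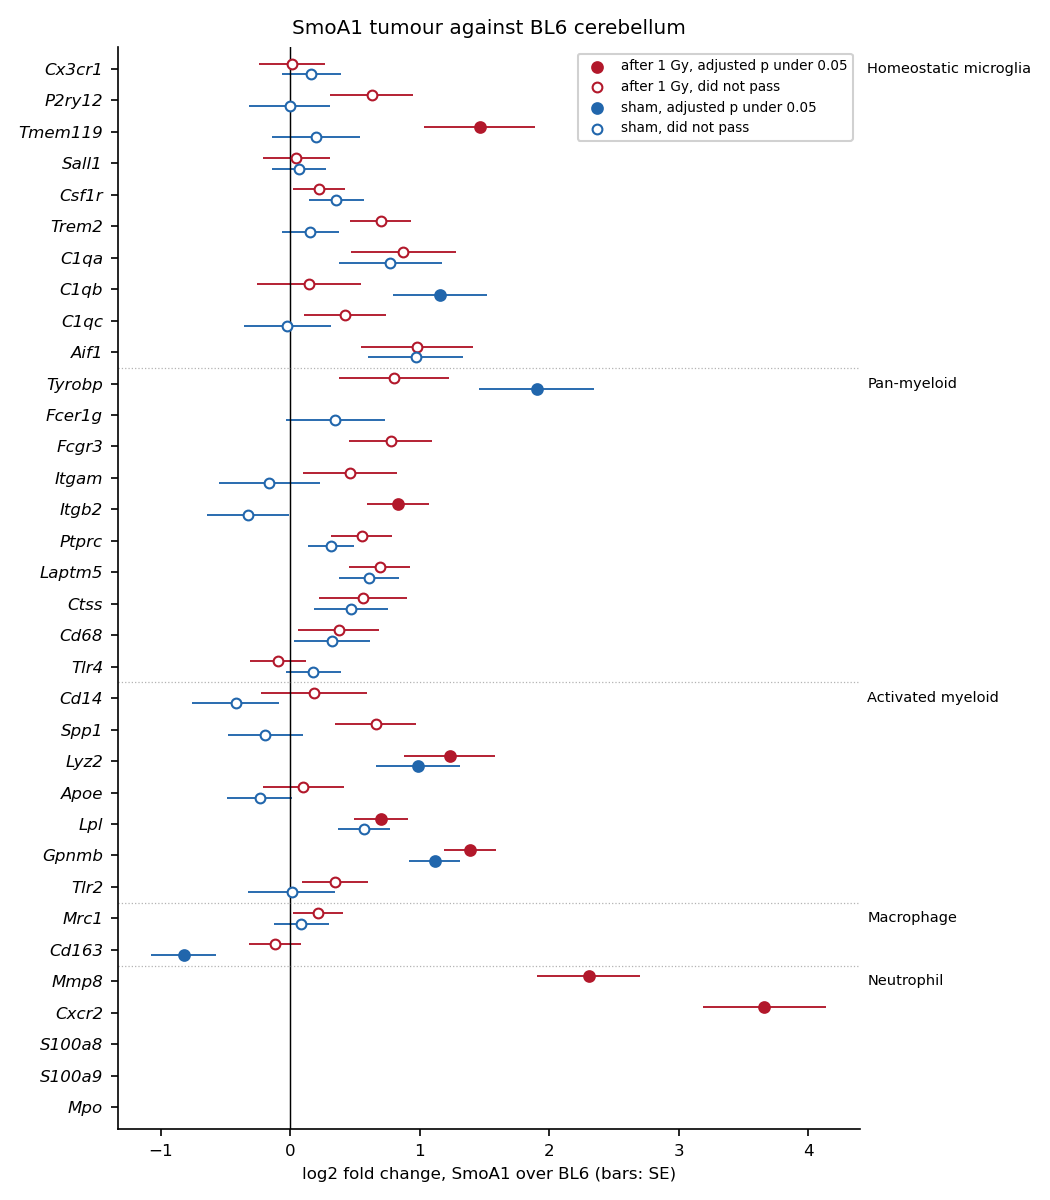
Log2 fold change of SmoA1 over BL6 after 1 Gy (red) and in sham (blue) for the members that passed the filter, with SE bars; filled points passed the adjusted p of 0.05. Spic is left out because BL6 had 0 to 2 counts, and the neutrophil genes Cxcr2 and Mmp8 lie farthest to the right, at 3.66 and 2.3 after 1 Gy.

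The members called after radiation in SmoA1 tumours were neutrophil genes. Mmp8, a collagenase of neutrophil granules, and Cxcr2, the chemokine receptor that draws neutrophils into tissue, were called higher after 1 Gy. The calprotectin subunits S100a8 and S100a9 were too low to test but had more CPM in every irradiated library than in any sham library. Mpo, a granule peroxidase made in neutrophil precursors, did not. The share of all genes that separate the SmoA1 groups in this way was not computed, so these values are a description only. Of the 35 members, 32 passed the filter, all but S100a8, S100a9 and Mpo. Mmp8 and Cxcr2 passed it only through the irradiated libraries, so the filter favoured a higher value for both. Called higher were 6.25% of them and 1.98% of all genes tested, and called lower were 0 members and 0.192% of all genes. In edgeR 6 members had an unadjusted p under 0.05, which is 18.75%, against 14.1% of all genes, and 0 of these 6 were lower after 1 Gy. DESeq2 called 0 members lower.

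The 250 bases before the annotated start are shown for the called genes Mmp8 and Cxcr2 and for the untested genes S100a8 and S100a9. They were read from RefSeq on GRCm38.p6 in the direction of transcription. Capitals mark GAGGAA or its reverse complement TTCCTC, a sequence that PU.1, the myeloid transcription factor of the ETS family encoded by Spi1, can bind. Other sequences that ETS factors can bind were not searched for or marked.
Mmp8 (chr9:7558179-7558428, + strand): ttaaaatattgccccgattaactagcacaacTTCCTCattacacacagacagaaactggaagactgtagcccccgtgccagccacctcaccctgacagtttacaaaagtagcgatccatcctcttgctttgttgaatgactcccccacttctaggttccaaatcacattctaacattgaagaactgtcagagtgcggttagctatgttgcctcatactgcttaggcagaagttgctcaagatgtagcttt
Cxcr2 (chr1:74153744-74153993, + strand): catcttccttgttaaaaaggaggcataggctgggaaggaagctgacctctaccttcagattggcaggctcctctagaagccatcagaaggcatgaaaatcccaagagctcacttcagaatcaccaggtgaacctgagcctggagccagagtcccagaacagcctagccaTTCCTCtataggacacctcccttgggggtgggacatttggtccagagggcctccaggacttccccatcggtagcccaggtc
S100a8 (chr3:90668821-90669070, + strand): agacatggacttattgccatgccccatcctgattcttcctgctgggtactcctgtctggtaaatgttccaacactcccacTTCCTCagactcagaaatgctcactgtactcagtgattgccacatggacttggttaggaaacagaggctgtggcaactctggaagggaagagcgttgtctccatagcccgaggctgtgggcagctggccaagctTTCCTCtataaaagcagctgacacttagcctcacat
S100a9 (chr3:90695722-90695971, - strand): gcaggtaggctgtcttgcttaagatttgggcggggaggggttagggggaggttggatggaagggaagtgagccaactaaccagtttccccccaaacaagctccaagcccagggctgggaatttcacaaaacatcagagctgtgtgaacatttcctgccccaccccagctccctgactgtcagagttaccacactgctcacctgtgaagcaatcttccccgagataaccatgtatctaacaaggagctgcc
The motif began 219 bases before the start in Mmp8, 81 in Cxcr2, and 170 and 36 in S100a8, each time as TTCCTC, and was not found in the S100a9 window. Of all 32851 promoter windows, 23.3% held it on either strand. Of the 34 windows of members 19 held it, which is 55.9%. They belong to the 27 members with a window, of which 17 had at least 1 match. A match is a description of the letters only. Spi1 itself had 29, 28 and 28 counts in SmoA1 1 Gy and 10, 21 and 9 in SmoA1 sham (log2 fold change 1.13 ± 0.31 SE, adjusted p = 0.0646), and was singled out after its values were seen.

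Mmp8 (chromosome 9, 7558456 to 7568485 on GRCm38) had 23, 38 and 18 counts in SmoA1 1 Gy, against 6, 6 and 12 in SmoA1 sham. The log2 fold change was 1.73 ± 0.37 (SE, adjusted p = 0.0153). Cxcr2 (chromosome 1, 74153989 to 74161246) had 30, 39 and 27 counts in SmoA1 1 Gy, against 8, 21 and 8 in SmoA1 sham (log2 fold change 1.41 ± 0.32 SE, adjusted p = 0.0208). The irradiated and sham tumours did not overlap for either gene, and SmoA1 sham replicate 2 was the sham library closest to the irradiated ones for Cxcr2 but not for Mmp8. Both calls rest on few libraries. Mmp8 lost its call without SmoA1 1 Gy replicate 1 or 2 or SmoA1 sham replicate 1 or 2 (adjusted p = 0.0624, 0.175, 0.0629 and 0.0537). Cxcr2 lost it without SmoA1 1 Gy replicate 1 or 2 or SmoA1 sham replicate 1 or 4 (adjusted p = 0.0967, 0.153, 0.0918 and 0.0707).

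S100a8 had 8, 12 and 13 counts in SmoA1 1 Gy and 3, 5 and 6 in SmoA1 sham. S100a9 had 8, 12 and 9 counts in SmoA1 1 Gy and 3, 8 and 3 in SmoA1 sham, where replicate 2 reached the lowest irradiated count. Both were below the filter and went untested. Mpo had 4, 6 and 9 counts in SmoA1 1 Gy, against 8, 11 and 8 in SmoA1 sham, so the groups overlapped. The 5 neutrophil members together summed to 103.5, 128 and 104.7 CPM in SmoA1 1 Gy, against 39.8, 61.4 and 47.3 CPM in SmoA1 sham, and in BL6 to 23.8, 36.8 and 16.9 CPM after 1 Gy, against 38.6, 20.6 and 20.4 CPM in sham. Summed markers of border macrophages (157 to 199.8 CPM after 1 Gy, against 84.3 to 118 in sham), Purkinje cells (132.2 to 231, against 92.7 to 113.7), oligodendrocytes (294.8 to 312.3, against 227.4 to 275.8) and choroid plexus (42.7 to 119.7, against 20.5 to 37.1) were also higher in every irradiated SmoA1 library, and their part in the result was not tested.

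**Figure D3:**
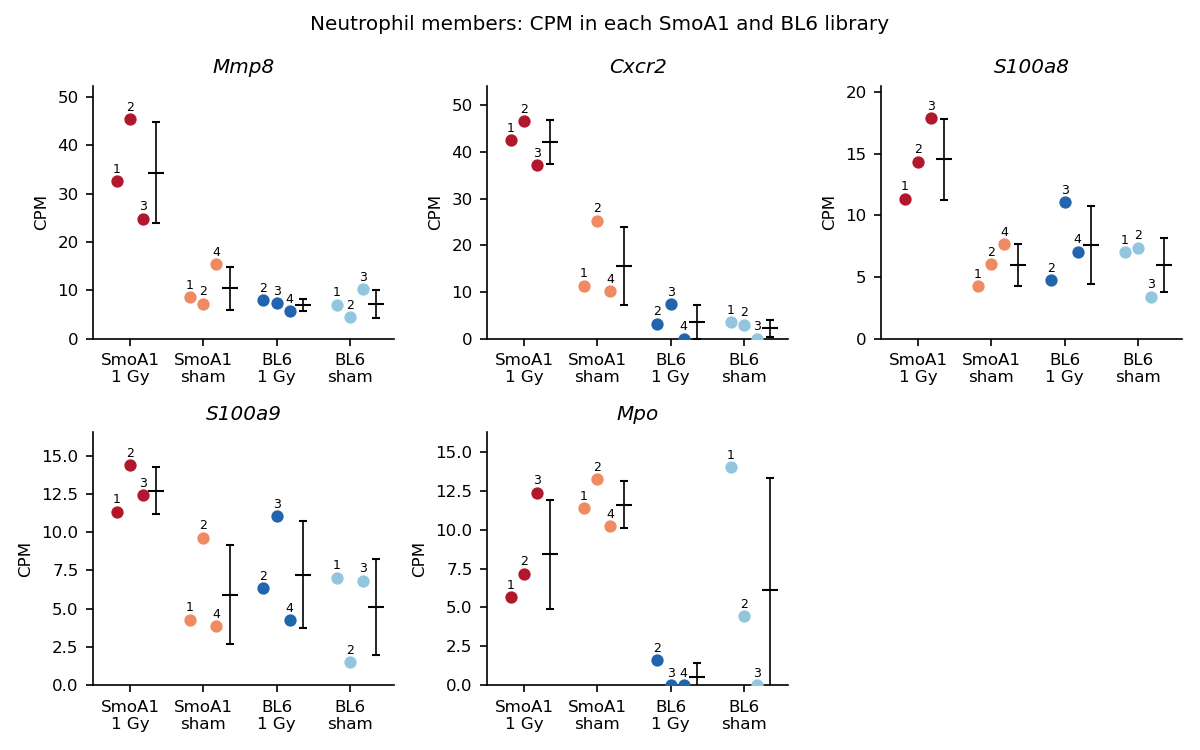
CPM of the 5 neutrophil members in each SmoA1 and BL6 library (numbered points; the black dash and bar are the mean and SD of 3 libraries), on linear axes from 0. Mmp8 and Cxcr2 are highest in the 3 irradiated SmoA1 libraries, and all BL6 libraries stay at or below 10.2 CPM for Mmp8 and 7.36 CPM for Cxcr2.

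Against BL6 1 Gy, where Mmp8 had 5, 4 and 4 counts and Cxcr2 2, 4 and 0, the irradiated tumours were higher by 2.3 ± 0.40 for Mmp8 and 3.66 ± 0.48 for Cxcr2 (log2, SE, adjusted p = 0.000326 and 1.06e-05). Both of these calls held without each library in turn. In sham, Cxcr2 had 37 counts over the SmoA1 libraries and 4 over the BL6 libraries but did not pass the filter. Without that filter its log2 fold change was 2.76 (adjusted p = 0.000646). Whether the change after 1 Gy differed between SmoA1 and BL6 was tested by an interaction term. It gave 1.76 ± 0.71 for Mmp8 and 0.88 ± 1.18 for Cxcr2 (log2, SE, adjusted p = 0.309 and 0.862). Of 32 members tested 0 passed this test in edgeR or DESeq2, against 0.995% of all genes called higher and 0.066% called lower. In edgeR 5 members had an unadjusted p under 0.05, which is 15.6%, near the 11.2% of all genes.

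Other granulocyte genes were also called higher in irradiated SmoA1 tumours. Of 21 further neutrophil and granulocyte genes, 10 passed the filter, with a median log2 fold change of 1.23. Of these 3 were called higher after 1 Gy, which is 30%, against 1.98% of all genes, and 0 lower. None of the 10 was lower at an unadjusted p under 0.05. Hdc, the histamine-forming enzyme of mast cells and basophils, had 74, 62 and 36 counts in SmoA1 1 Gy, against 7, 31 and 10 in SmoA1 sham, and was higher by 1.88 ± 0.34, and Fpr1, a formyl peptide receptor, by 2.49 ± 0.54 (log2, SE, adjusted p = 0.00470 and 0.0161). Padi4, the other gene called, codes for an enzyme of neutrophil extracellular trap formation (log2 fold change 2.15, adjusted p = 0.0210). Fpr1 had 14, 15 and 11 counts in SmoA1 1 Gy and 2, 4 and 1 in SmoA1 sham. Padi4 had 24, 18 and 11 in SmoA1 1 Gy and 2, 7 and 3 in SmoA1 sham. Both passed the filter only through the irradiated libraries, so the filter partly set the median of this list and its lack of lower genes. Without each library in turn the calls of Padi4 and Fpr1 each held in 2 of 6 fits (adjusted p up to 0.198 and 0.144) and that of Hdc in 5 of 6. DESeq2 did not call Fpr1 (0.0727) or Hdc (0.121), and the replicate block did not call Fpr1 (0.0621). Ly6g, the defining surface marker of mouse neutrophils, had only 5, 3 and 0 counts in SmoA1 1 Gy and 1, 0 and 0 in SmoA1 sham. Trem1, a myeloid receptor that also signals through Tyrobp, had 27, 32 and 26 counts in SmoA1 1 Gy and 2, 18 and 2 in SmoA1 sham (adjusted p = 0.0263), a call that held in 1 of 6 such fits (up to 0.151) and was lost under DESeq2 (0.422). SmoA1 sham replicate 2 was again the sham library nearest to the irradiated ones for Hdc and Trem1. It was also the only SmoA1 sham library high in Y-linked genes, and the part of sex was not tested.

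No microglia or macrophage member was called after 1 Gy in SmoA1 tumours. The 10 homeostatic members had a median log2 fold change of 0.04 and the 7 activated members one of -0.09, with all genes at -0.02. Cx3cr1 changed by -0.12 ± 0.23, P2ry12 by 0.25 ± 0.29, Spp1 by 0.33 ± 0.28 and Apoe by -0.22 ± 0.28 (log2, SE), and none passed. Itgb2, which neutrophils and microglia both express, stood at 53.9, 49.1 and 81.3 CPM in SmoA1 1 Gy and 11.4, 37.3 and 38.3 CPM in SmoA1 sham (log2 fold change 1.04 ± 0.30 SE, adjusted p = 0.0790). Cd163 stood at 68.0, 63.4 and 48.2 CPM in SmoA1 1 Gy, against 31.3, 45.8 and 19.2 CPM in SmoA1 sham (log2 fold change 0.89 ± 0.26 SE, adjusted p = 0.0763). Neither pair of groups overlapped, though the share of all genes that separate so was not computed. Both genes passed when all 12 SmoA1 and BL6 libraries shared 1 fit (adjusted p = 0.0209 for Itgb2 and 0.0245 for Cd163). Lyve1, another border macrophage and lymphatic gene, had 22, 25 and 23 counts in SmoA1 1 Gy, against 3, 10 and 0 in SmoA1 sham (log2 fold change 2.44 ± 0.52 SE, adjusted p = 0.0142). That call was lost in 3 of 6 fits that left out a library (up to 0.100). The border macrophage markers, which include Cd163 and Lyve1, summed to 157 to 199.8 CPM in SmoA1 1 Gy, against 84.3 to 118 CPM in SmoA1 sham, and the part of such cells in both results was not tested. Sparc, a matrix protein also made by resting microglia, was called lower (log2 fold change -0.97, adjusted p = 0.0205), but not in 3 of 6 fits that left out a library (up to 0.161), under DESeq2 (0.0668) or with the replicate block (0.0729).

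In BL6 cerebellum no member was called after 1 Gy. Of 22 members tested 0 passed in edgeR or DESeq2, with 0.00628% of all genes called in each direction by edgeR. In edgeR 0 members and 3.98% of all genes had an unadjusted p under 0.05. The median log2 fold change of the members was -0.13. Cd14 had 7, 15 and 8 counts in BL6 1 Gy, against 16, 18 and 15 in BL6 sham (log2 fold change -0.72 ± 0.36 SE), the lowest value among the members tested. The 13 members left untested were the 5 neutrophil genes and Tmem119, C1qa, Aif1, Tyrobp, Fcer1g, Fcgr3, Lyz2 and Spic.

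In Ptc tumours most myeloid members stood higher after 1 Gy than in sham, but the libraries of a group varied widely and edgeR made no call. All 35 members were tested, 32 had a positive log2 fold change, the median was 1.81 and that of all genes was -0.000465. No gene of 19571 was called in either direction (0%). Without adjustment 54.3% of the members and 7.26% of all genes had a p under 0.05. DESeq2 called Cd14, Spp1 and Spic higher, with 1.12% of all genes called higher by that test. In 8 members every 1 Gy library lay above every sham library (Fcgr3, Itgb2, Tlr4, Cd14, Spp1, Tlr2, Spic and Mrc1), and in 0 every one lay below, while 7.04% of all genes lay above.

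Cd14, the coreceptor that hands lipopolysaccharide to Tlr4, had the largest log2 fold change of the 35 members in Ptc. It stood at 8.59, 164.6 and 90.6 CPM in Ptc 1 Gy, against 1.17, 1.94 and 1.70 CPM in Ptc sham (log2 fold change 5.77 ± 1.08 SE in edgeR, adjusted p = 0.685, and 5.78 with adjusted p = 7.71e-07 in DESeq2). Even the lowest irradiated library was above the highest sham library. Leaving out each library in turn kept the fold between 4.95 and 6.30 (log2). Spp1, the secreted phosphoprotein osteopontin, stood at 36.9, 163 and 141 CPM in Ptc 1 Gy, against 15.3, 12.2 and 23.6 CPM in Ptc sham (log2 fold change 2.74 ± 0.59 SE, adjusted p = 0.685 in edgeR and 0.00386 in DESeq2), though it shares exonic bases with Gm42793. Tlr4 stood at 3.55, 11.1 and 4.34 CPM in Ptc 1 Gy and 1.73, 2.33 and 1.87 CPM in Ptc sham. Tlr2, a receptor of bacterial lipoproteins, stood at 6.74, 30.4 and 10.7 CPM in Ptc 1 Gy and 6.27, 2.59 and 4.14 CPM in Ptc sham. In SmoA1 tumours Cd14 had 16, 13 and 12 counts after 1 Gy and 8, 22 and 16 in sham, and Tlr4 and Tlr2 were not called either.

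**Figure D4:**
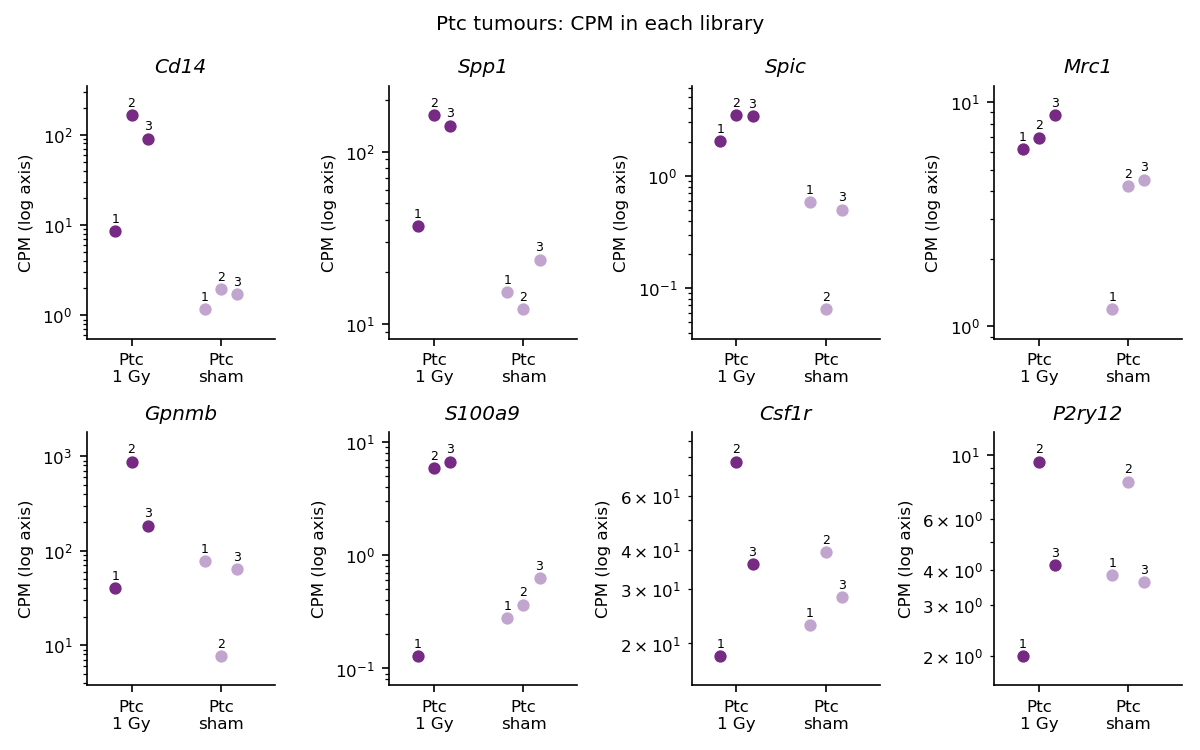
CPM of 8 members in each Ptc library (numbered points), on log axes. Cd14, Spp1, Spic and Mrc1 separate the 1 Gy libraries from the sham libraries, whereas in Gpnmb, S100a9, Csf1r and P2ry12 the 1 Gy replicate 1 falls among or below the sham libraries.

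The Ptc values followed single libraries. Ptc 1 Gy replicate 2 was the highest library for 28 of 35 members, Ptc 1 Gy replicate 1 the lowest for 9 and Ptc sham replicate 2 the lowest for 20. Gpnmb stood at 40.4, 877 and 184 CPM in Ptc 1 Gy and 78.0, 7.71 and 63.5 CPM in Ptc sham. Lyz2 stood at 148, 1236 and 648 CPM in Ptc 1 Gy and 176, 22.1 and 185 CPM in Ptc sham. In both genes the groups overlapped, with 1 Gy replicate 1 below sham replicates 1 and 3. Ptc sham replicate 2 also had the most Purkinje (2529 CPM), oligodendrocyte (3208 CPM) and erythrocyte markers (743 CPM), and Ptc 1 Gy replicate 2 the most astrocyte (3222 CPM) and endothelial markers (508 CPM). Choroid plexus markers summed to 335.8 CPM in Ptc 1 Gy replicate 3 and to at most 5.39 CPM in the other Ptc libraries. The part of these cells in the member values was not tested. Without both libraries numbered 2, 28 of 34 members tested were still positive, but their median log2 fold change was 0.88, with that of all genes at 0.02.

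Resting microglia genes had log2 fold changes nearer to 0 in Ptc. Cx3cr1 differed by 0.05 ± 0.38, P2ry12 by 0.01 ± 0.67, Tmem119 by -0.24 ± 0.88 and Csf1r by 0.54 ± 0.53 (log2, SE). P2ry12 stood at 2.00, 9.50 and 4.15 CPM in Ptc 1 Gy, against 3.83, 8.10 and 3.62 CPM in Ptc sham, with the library numbered 2 the highest of each group. Sall1, also a gene of neural progenitors, stood at 20.8, 29.7 and 7.29 CPM in Ptc 1 Gy and 22.5, 7.93 and 27.4 CPM in Ptc sham. By contrast Trem2 stood 1.64 ± 0.69 higher, C1qa, C1qb and C1qc 1.81 to 1.91 higher, and Tyrobp 2.22 ± 0.84 higher (log2, SE), none of them called. The leukocyte phosphatase Ptprc, the lysosomal proteins Laptm5, Ctss and Cd68, the calcium-binding protein Aif1 and the Fc receptor genes Fcer1g and Fcgr3 lay 1.47 to 2.2 higher (log2), also without a call. No test compared the subgroups. Per exonic kb, Apoe averaged 1465 CPM in Ptc 1 Gy and 555 CPM in Ptc sham, the highest level of any member in both groups. Apoe is also a gene of astrocytes, whose markers summed to 301.8, 3222 and 1134 CPM in Ptc 1 Gy and 462.8, 1842 and 724 CPM in Ptc sham, and their part in the Apoe level was not tested.

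Neutrophil members were near the bottom of the Ptc range. S100a9 had 6, 192 and 246 counts in Ptc 1 Gy and 12, 17 and 30 in Ptc sham, and S100a8 had 6, 124 and 148 counts in Ptc 1 Gy and 18, 14 and 16 in Ptc sham. Cxcr2 had 1, 37 and 71 counts in Ptc 1 Gy and 10, 3 and 17 in Ptc sham, and Mmp8 had 0, 61 and 27 in Ptc 1 Gy and 9, 16 and 6 in Ptc sham. In each of the 4 genes replicates 2 and 3 of the irradiated group lay above all sham libraries and replicate 1 below them. Replicate 1 of the irradiated group was also the only Ptc library high in Y-linked genes, and the part of sex was not tested. Retnlg, a resistin-like gene of neutrophils, had 0, 78 and 25 counts in Ptc 1 Gy and 1, 1 and 0 in Ptc sham, and was chosen after its values were seen. Ly6g had 0, 1 and 4 counts in Ptc 1 Gy and 0 in each Ptc sham library.

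**Figure D5:**
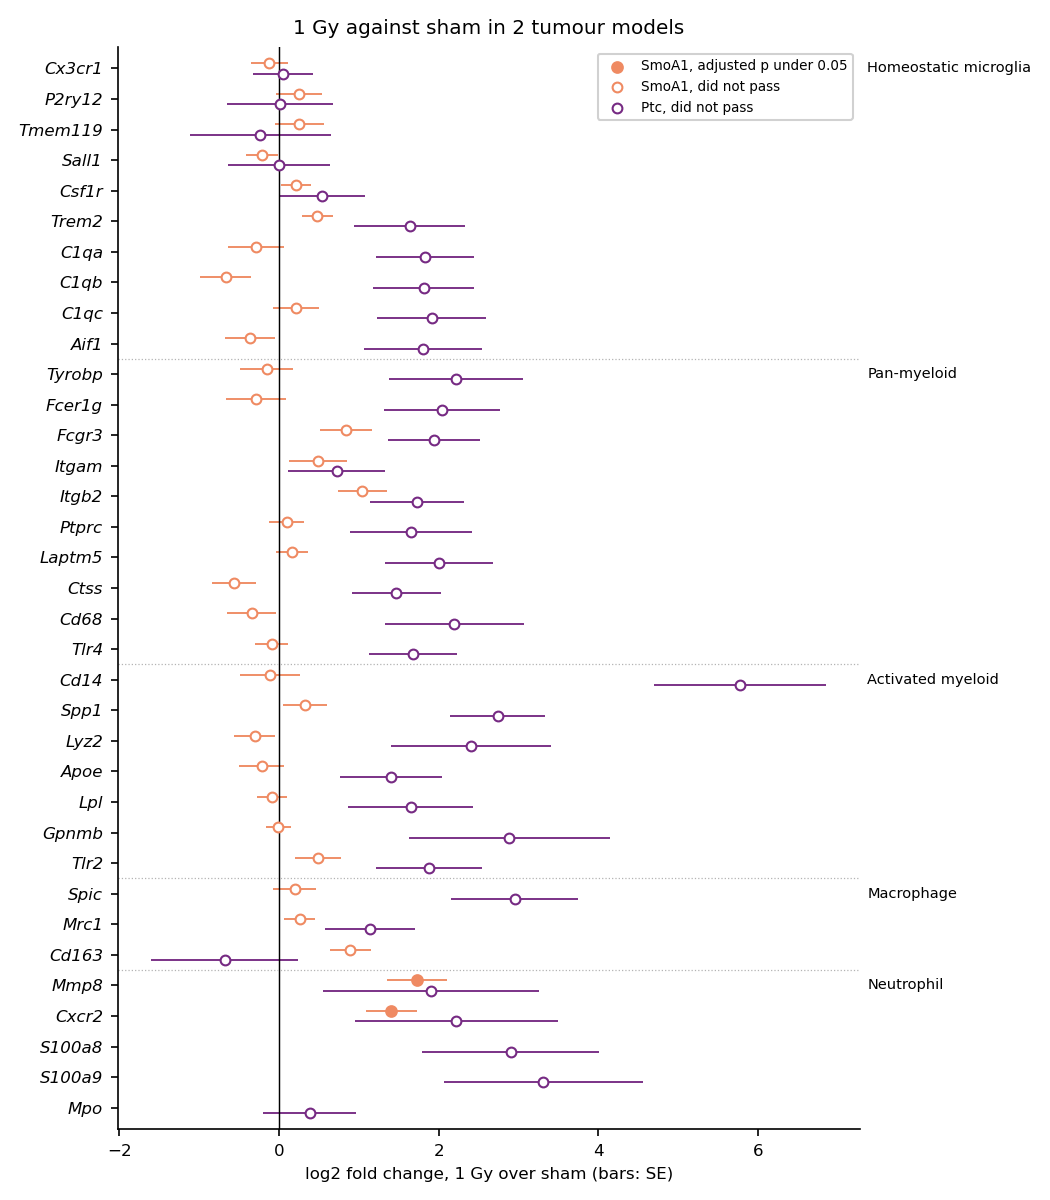
Log2 fold change of 1 Gy over sham in SmoA1 (orange) and Ptc tumours (purple) for each member tested, with SE bars; filled points passed the adjusted p of 0.05. In SmoA1 only Mmp8 and Cxcr2 passed, at 1.73 and 1.41, while in Ptc 32 of 35 values are positive with wide errors and none passed. Levels in SmoA1 are compressed, so the sizes of the folds cannot be compared between the models.

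Further genes of the same pathways were read from 9 lists of 156 genes. By edgeR 0 of 134 genes of these lists were called in Ptc after 1 Gy (42 at an unadjusted p under 0.05, 11 called by DESeq2) and 0 of 108 in BL6 (4 at an unadjusted p under 0.05, 0 by DESeq2), and the list medians were 0.35 to 1.69 in Ptc and -0.07 to 0.07 in BL6 (log2). Of all genes, 7.26% in Ptc and 3.98% in BL6 had an unadjusted p under 0.05 by edgeR. In sham, 4 of the 12 macrophage and monocyte genes tested were called higher in SmoA1 than in BL6 and 1 lower, which is 33.3% and 8.33%, against 7.07% of all genes called higher and 9.4% called lower. Ms4a7, a macrophage membrane protein, had 28, 39 and 42 counts in SmoA1 sham, against 11, 6 and 5 in BL6 sham (log2 fold change 1.96 ± 0.32 SE), and was higher by 1.85 ± 0.31 after 1 Gy, when 4 of 14 were called higher and 0 lower. Ccr2, the chemokine receptor of blood monocytes, had 39, 34 and 32 counts in SmoA1 sham, against 5, 16 and 14 in BL6 sham, and 40, 40 and 51 in SmoA1 1 Gy, against 15, 10 and 12 in BL6 1 Gy (log2 fold changes 1.26 and 1.56, adjusted p = 0.00390 and 0.000253). Chil3, a chitinase-like protein of alternatively activated macrophages, was higher by 1.73 ± 0.46 (log2, SE), and Lyve1 was the gene called lower (log2 fold change -2.22 ± 0.54 SE, adjusted p = 0.00460). Under DESeq2 both lost the call (0.0527 for Chil3 and 0.164 for Lyve1). Among 18 other disease-associated microglia genes tested, Itgax, the CD11c integrin chain, was the 1 call, with 39, 54 and 37 counts in SmoA1 sham and 9, 4 and 7 in BL6 sham (log2 fold change 2.35 ± 0.31 SE). That is 5.56% of this list, below the 7.07% of all genes. Genes of these lists with few BL6 counts, such as Ms4a7, Chil3 and Itgax, passed the filter only through SmoA1, which favoured higher values among those tested. Lyve1, lower in SmoA1 sham, passed it only through BL6. Among 19 other homeostatic microglia genes, Adgrg1 was called higher (0.86 ± 0.18) and Siglech, a microglial lectin, lower (-1.83 ± 0.28, log2, SE), 5.26% each way and again below the shares of all genes. Siglech had 13, 12 and 8 counts in SmoA1 sham and 27, 39 and 29 in BL6 sham, and was lower again after 1 Gy (-1.02 ± 0.26), a call lost in 3 of 6 fits that left out a library. Of 6 granulocyte genes tested in sham 0 were called higher and Hdc was called lower, with 7, 31 and 10 counts in SmoA1 sham, against 29, 30 and 30 in BL6 sham (log2 fold change -1.22 ± 0.33 SE, adjusted p = 0.0112), a call also lost in 3 of 6 such fits (up to 0.0536).

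Signalling and regulator genes completed these lists. Tlr8, an endosomal RNA sensor, had 23, 30 and 25 counts in SmoA1 sham and 1, 6 and 2 in BL6 sham (log2 fold change 2.75 ± 0.44 SE), and 1 further gene of the 16 Toll-like receptor genes tested, Tlr1, was called higher, while the adaptor kinase Irak2 was called lower. The Tlr1 call (adjusted p = 0.0441) held in 0 of 6 fits that left out a library and was lost under DESeq2 (0.201), without the low-count filter (0.0657) and with the replicate block (0.287). Complement had 3 of 17 genes higher (C4b, Itgax and C5ar1) and 1 lower, the activator properdin (Cfp). Irak2, C5ar1 and Cfp lost their calls in 3, 3 and 2 of 6 such fits and under DESeq2 (adjusted p = 0.0977, 0.175 and 0.0818). Of 15 regulators Runx1 was higher, and Cx3cl1, the ligand of Cx3cr1, and Bhlhe41 were lower (log2 fold changes 0.80, -1.16 and -0.73). That is 6.67% of regulators higher and 13.3% lower, near the 7.07% and 9.4% of all genes. The shares were 12.5% and 6.25% for Toll-like receptor genes and 17.6% and 5.88% for complement. After 1 Gy, 5 of 16 genes of Trem2 and Tyrobp signalling were higher in SmoA1 than in BL6 and 0 lower. Genes with few BL6 counts, such as Tlr8, Trem1 and Treml2, passed the filter only through SmoA1, which favoured higher values among those tested. Trem1 had 85 counts over the SmoA1 1 Gy libraries and 3 over the BL6 1 Gy libraries, a ratio of 23.6 with a 95% counting interval of 7.79 to 117. After 1 Gy, 2 of 10 granulocyte genes (Il1b and Padi4), 4 of 17 complement genes, 4 of 18 Toll-like receptor genes and 2 of 20 disease-associated microglia genes (Itgax and Cst7) were also called higher and 0 lower, against 4.33% of all genes called higher and 2.58% called lower. Cst7 held its call in 1 of 6 fits that left out a library (adjusted p up to 0.171) and lost it under DESeq2 (0.120) and with the replicate block (0.102). Treml2 was higher by 3.16 ± 0.40 and the kinase Fgr by 2.29 ± 0.31 (log2, SE). Among regulators Irf8, a transcription factor needed for microglia and monocytes, was higher by 1.13 ± 0.21 and Tgfb1 by 1.4 ± 0.23 (log2, SE). Tgfb1 was also the 1 regulator called after 1 Gy against sham in SmoA1 (1.09 ± 0.23, adjusted p = 0.0142), lost without SmoA1 1 Gy replicate 2 (0.101) or SmoA1 sham replicate 1 (0.0721). That is 6.25% of the regulators tested, against 1.98% of all genes. Of the 4 Fc receptor genes tested, Fcgr2b was called higher in SmoA1 1 Gy than in BL6 1 Gy (log2 fold change 0.69, adjusted p = 0.0289), a call lost in 4 of 6 fits that left out a library, under DESeq2 (0.153) and with the replicate block (0.137).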

How the data were processed

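Counts came from bulk RNA sequencing of 18 libraries, deposited as 54 files of raw counts per gene by the authors. Parts sharing a sample number differed by less than sampling noise (chi-square per degree of freedom 0.858 to 0.938) and were summed. The submitters' processing notes name mm10 and Cell Ranger 5.0.1. Which aligner made the counts was not given in the sources used. Unmapped, multimapping, unassigned and ambiguous reads were left out (unmapped 45.8% to 76.1% of reads in SmoA1 and BL6 and 2.53% to 6.16% in Ptc; no exon 70.4% to 75% and 12.5% to 14.3% of uniquely mapped reads). The unstranded counts were filtered with filterByExpr, scaled by TMM and tested in edgeR 4.0.16 (R 4.3.3) with the quasi-likelihood test, with Benjamini-Hochberg adjustment over all genes and calls at 0.05. A gene with few counts in 1 group of a comparison could pass the filter through the other group alone. CPM was scaled over the 12 SmoA1 and BL6 libraries and over the 6 Ptc libraries separately. Symbols came from GENCODE on GRCm38, which matched 53274 identifiers. Members and lists were chosen with earlier results of these data known. All members are accounted for, those called with values by library, and up to 3 called genes per direction by smallest p may be named from each further list. 1 gene of these lists is not reported here. The fits were tested on simulated counts. Alternatives were DESeq2 1.42.0, RLE factors, no filter, the larger strand column, a replicate block, 12 libraries in 1 fit, each library left out, and both Ptc libraries numbered 2 left out. Figures used matplotlib 3.10.9.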

Additional observations from a re-analysis of the deposited data

Results flagged for a closer look

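Hdc, a granulocyte gene outside the 35 members, differed in its change after 1 Gy between SmoA1 and BL6 by the test of the difference itself. The change in SmoA1 minus that in BL6 was 1.82 ± 0.43 (log2, SE, adjusted p = 0.0288 by edgeR). It had 74, 62 and 36 counts in SmoA1 1 Gy and 7, 31 and 10 in SmoA1 sham, with 31, 31 and 33 counts in BL6 1 Gy and 29, 30 and 30 in BL6 sham. The call held in 2 of 12 fits that left out a library and was lost under DESeq2 (adjusted p = 0.195) and with the replicate block (0.193).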

How the results depend on the processing

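Of 894 values of 77 named results under the alternatives, 720 kept direction and side of the threshold, 171 lost the call, 3 gained one and 0 changed sign. The 3 gained are Cd14, Spp1 and Spic in Ptc under DESeq2, which called 3 members there, against 0 by edgeR. For SmoA1 sham against BL6 sham, 6 members were called, 3 by DESeq2, 3 with the larger strand column, where 14 members were tested, and 3 to 5 without each library in turn. After 1 Gy these counts were 8, 4, 5 and 4 to 7. For SmoA1 1 Gy against sham, 2 members were called, 4 without the low-count filter, 4 with 12 libraries in 1 fit (Itgb2 and Cd163 were added in both), and 0 to 2 without each library in turn. Correlations of same-numbered deviations were -0.0545 to 0.209, against -0.270 to 0.232 for unlike numbers. With 3 libraries per group these values cannot decide whether sample numbers pair the samples. With the replicate block 4, 7, 2, 0, 0 and 0 members were called in the 6 comparisons. Low counts limit what SmoA1 and BL6 libraries can show: 13 members went untested in BL6 after 1 Gy. Wide spread limits Ptc.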
